A study of Mus musculus with 8 samples.

Results

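Collagen chain genes are the genes named *Col* plus a type number and an alpha chain number, and all entries of the mouse count table with such a symbol were taken, 44 of 54532 entries. They were described by structural class: 11 fibrillar genes, 8 basement membrane genes, 9 genes of the fibril-associated collagens with interrupted triple helices (FACIT), 6 type 6 genes, 1 type 7 gene, 3 network genes and 4 membrane-spanning genes. *Col26a1* and *Col28a1* belong to none of these classes. The libraries were made from primary lung fibroblasts (pFBs) of female mice of C57/black background, cultured in medium with serum and given no treatment. WT libraries (n = 4) came from wild type mice and HOMO libraries (n = 4) from mice homozygous for a knocked-in human IGFBP5 (hIGFBP5) transgene that is expressed ubiquitously. The comparison asks how pFBs with the transgene differ from wild type pFBs. Ages, and which culture came from which mouse, are not given in the sources used here, so p-values measure the spread between these libraries, which may be technical. The transgene has no entry of its own in the table. The mouse gene *Igfbp5* was measured at 7.30, 9.64, 408 and 4.33 CPM in WT1 to WT4 and at 1.07 to 2.85 CPM in HOMO.

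Every collagen chain carries a repeat in which glycine stands at each first position of a triplet, and winding of the chains of a trimer requires it. Fibrillar collagens have a long unbroken repeat, are secreted as procollagens, are trimmed at both ends and assemble into the fibrils that give lung tissue its tensile strength. Basement membrane chains have many interruptions and form sheets under epithelium and endothelium, FACIT chains attach to fibril surfaces, type 6 chains form beaded filaments near cells, and the collagens of the membrane-spanning class pass through the plasma membrane. Fibroblasts are the main source of fibrillar collagens in fibrotic lung.

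The classes differed in their coding sequence. In the longest coding transcript of each member (GENCODE M21, GRCm38, the assembly also called mm10), the longest unbroken run of triplets was 216 to 344 triplets long in the fibrillar genes, with a median of 338, against 30 to 66 in the basement membrane genes, 32 to 113 in the FACIT genes and 37 to 87 in the type 6 genes. Exons of exactly 54 bases, the length of 6 triplets, were 305 of the 649 coding exons (47.0%) of the fibrillar genes, 109 of 432 (25.2%) in the FACIT genes, 16 of 377 (4.24%) in the basement membrane genes and 0 of 6 in the network genes. They were counted by length alone, whether or not they lie in the repeat. *Col24a1* and *Col27a1* stood apart among the fibrillar genes, with longest runs of 216 and 217 triplets where the other 9 had 337 to 344. The stretches below hold 6 triplets each, with the glycine codon that opens each triplet in capitals, for the most abundant member and for the 4 genes that the comparison of genotypes called. The first 4 are whole exons, and the stretch of *Col18a1* is the start of its longest run, which has 30 triplets.
*Col1a1*, exon 8 of 51, chr11:94939904-94939957, plus strand: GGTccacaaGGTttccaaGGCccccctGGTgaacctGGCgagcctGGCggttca
*Col27a1*, exon 7 of 61, chr4:63245069-63245122, plus strand: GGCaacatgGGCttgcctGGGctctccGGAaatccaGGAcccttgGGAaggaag
*Col11a2*, exon 15 of 66, chr17:34051480-34051533, plus strand: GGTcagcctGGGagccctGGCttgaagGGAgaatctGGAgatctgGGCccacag
*Col20a1*, exon 29 of 37, chr2:181013236-181013289, plus strand: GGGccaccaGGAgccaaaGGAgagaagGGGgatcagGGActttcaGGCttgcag
*Col18a1*, exon 12 of 41, chr10:77077693-77077746, minus strand: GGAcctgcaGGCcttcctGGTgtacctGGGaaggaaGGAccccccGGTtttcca
In each of them glycine codons recur at every 9 bases, while the codons between them differ from gene to gene.

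**Figure D1:**
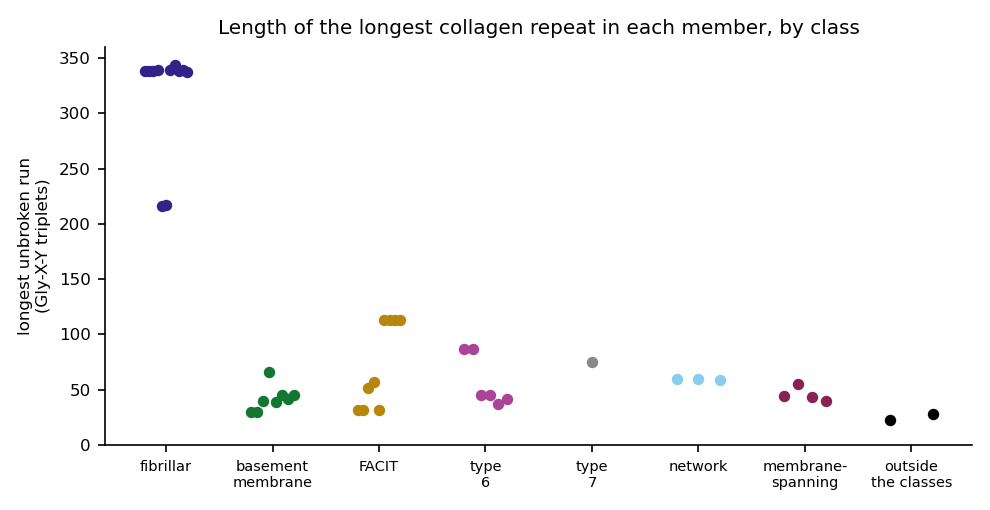
Longest unbroken run of Gly-X-Y triplets in each of the 44 members (1 point a gene, vertical axis in triplets), grouped by class along the horizontal axis. The fibrillar genes lie at 216 to 344 triplets and all members of the other groups at 113 or below, and the pair of fibrillar points near 217 are *Col24a1* and *Col27a1*.

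Between 17236521 and 31987790 counts were assigned per library. The libraries did not vary alike: the biological coefficient of variation between 2 libraries was 7.65% for WT1 with WT2, 4.71% for HOMO1 with HOMO2 and 5.07% for HOMO3 with HOMO4, against 30.0% to 56.5% for all other pairs within a genotype. The close pairs differed by more than sampling noise, with a chi-square per degree of freedom of 4.04 to 8.22, and were kept as separate libraries. Repeat libraries of 1 culture can differ by more than sampling noise too, and whether a close pair came from 1 culture is not given in the sources used here. Of 14150 genes tested, 1716 (12.1%) were called, 5.94% higher and 6.18% lower in HOMO. An unadjusted edgeR p under 0.05 was found for 32.3% of them, and DESeq2 called 16.5% of the genes to which it gave an adjusted p. These shares are the background of the marker counts below. With each close pair summed to 1 unit, which leaves 3 WT and 2 HOMO units, edgeR called 0 genes, collagen or other, at the same thresholds, and 2057 genes, 6 of them collagen genes, had an unadjusted p under 0.05. The 7 fibroblast markers, among them *Vim*, *Pdgfra*, *Pdgfrb* and *Dcn*, summed to 4370 to 5541 CPM in WT and 2559 to 3339 CPM in HOMO. Of these, 0 were called higher and 2, *Vim* and *Pdgfrb*, lower, while 4 had an unadjusted edgeR p under 0.05 and DESeq2 called 3. *Vim* made up most of the sum, with means of 2847 CPM in WT and 1815 CPM in HOMO. *Pdgfra* went the other way, with a log2 fold change of 0.12, and *Lum* was near level at -0.10. The 5 lung mesenchyme markers summed to 126 to 232 CPM in WT and 88.3 to 110 CPM in HOMO. Of these, 1, *Tbx5*, was called lower, while 4 had an unadjusted edgeR p under 0.05 and DESeq2 called 2. *Foxf1* went the other way, with means of 36.8 CPM in WT and 53.9 CPM in HOMO. The macrophage and leukocyte markers *Ptprc*, *Cd68*, *Adgre1*, *Csf1r* and *Lyz2*, all 5 tested, summed to 109, 139.7, 1854 and 1089.5 CPM in WT1 to WT4 and to 23.0 to 152 CPM in HOMO. *Lyz2* had the highest mean level of the 5, 704 CPM in WT and 54.8 CPM in HOMO. Of these markers edgeR called 0, while 4 had an unadjusted p under 0.05 and DESeq2 called 3. Smooth muscle and pericyte markers (5 genes) summed to 30.4 to 289 CPM in WT, highest in WT3, and to 8.16 to 90.4 CPM in HOMO, with *Rgs5* called lower. The 5 epithelial markers summed to at most 0.541 CPM in WT and 1.20 to 7.80 CPM in HOMO, with *Cdh1* called higher, and the 4 endothelial markers to at most 4.21 CPM in any library. Mesothelial markers (4 genes) summed to 49.4 to 127 CPM in WT and 85.4 to 115 CPM in HOMO, with *Wt1* called higher. *Krt19* and *Msln* went the other way, with log2 fold changes of -3.06 and -0.52, and *Upk3b* was near level at 0.09. None of these 3 was called. Cartilage markers (4 genes) summed to 2.28 to 23.8 CPM in WT and 4.90 to 10.4 CPM in HOMO. The part of such cells in the collagen results was not tested. In bulk RNA, fewer cells of a type and less RNA per cell cannot be told apart.

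Of the 44 members, 31 passed the filter on low counts and were tested with edgeR's quasi-likelihood test. A gene was called when its Benjamini-Hochberg adjusted p over all tested genes was under 0.05 and its absolute log2 fold change was above 0.6. Levels are CPM, each gene's counts scaled to a common total per library, on library sizes scaled by trimmed mean of M-values (TMM). HOMO pFBs had higher levels of *Col27a1*, *Col20a1* and *Col11a2* and a lower level of *Col18a1*. These 4 calls were 12.9% of the 31 tested members, beside 12.1% of all tested genes, so the share of collagen genes called was near the background. Higher in HOMO were 3 members (9.68%, background 5.94%) and lower was 1 member (3.23%, background 6.18%). For 11 members no level of one genotype reached those of the other (35.5%, background 27.3%), 7 of them higher and 4 lower in HOMO. An unadjusted p under 0.05 was found for 17 members (54.8%, background 32.3%). The median log2 fold change over the 31 was 0.13, and -0.04 over all tested genes. Passing the filter needed enough counts in 4 libraries, and for *Col6a4*, *Col8a2*, *Col10a1* and *Col15a1* at most 2 libraries of one genotype had 10 counts.

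**Figure D2:**
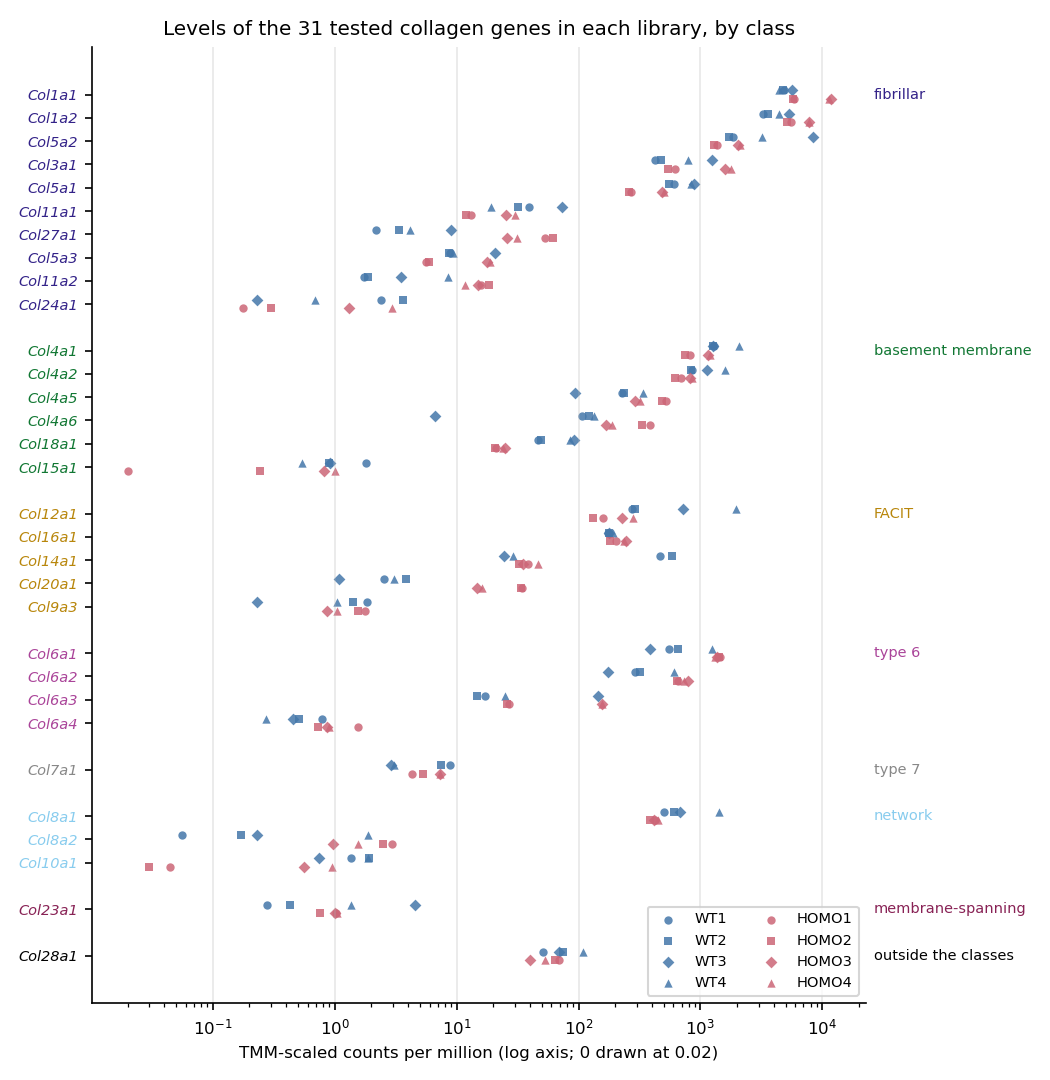
TMM-scaled CPM (log axis) of the 31 tested members in each of the 8 libraries, WT in blue above HOMO in red, ordered by class and by mean level within a class. Levels reach 11699 CPM for *Col1a1* in HOMO3, and *Col15a1* in HOMO1, with 0 counts, is drawn at 0.02 CPM, and symbols of close pairs (circle with square, and in HOMO diamond with triangle) mostly lie together.

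*Col27a1* (fibrillar, chromosome 4 from 63214004 to 63334991, plus strand) codes for a chain of thin fibrils known mainly from cartilage and growth plates. It was measured at 2.19, 3.38, 9.05 and 4.14 CPM in WT1 to WT4 and 53.2, 61.3, 25.7 and 31.3 CPM in HOMO1 to HOMO4. Each HOMO library exceeded each WT library, and HOMO1 and HOMO2 lay above HOMO3 and HOMO4. The means were 4.69 ± 3.01 CPM in WT and 42.9 ± 17.1 CPM in HOMO (mean ± SD, n = 4 each), and the gene was upregulated, with a log2 fold change of 3.19 (SE 0.48, edgeR adjusted p = 0.00691). It was called in 8 of 8 fits that each left out 1 library (edgeR adjusted p 0.00246 to 0.0267). Such a fit keeps the close partner of the library left out, except for WT3 and WT4, which have none. The fit without WT3 and WT4, added after the data were seen, keeps only the close pair WT1 and WT2 as WT. Its p-values thus leave out most of the spread between WT libraries. There the log2 fold change was 3.93 (edgeR adjusted p = 0.00291). With close pairs summed it was 3.05 (unadjusted p 0.00165, edgeR adjusted p 0.205).

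*Col20a1* (FACIT, chromosome 2 from 180986535 to 181018363, plus strand) codes for a homotrimeric chain with von Willebrand factor A and fibronectin type 3 repeats beside a short helix. Its levels were 2.53, 3.86, 1.09 and 3.09 CPM in WT1 to WT4 and 34.2, 33.5, 14.8 and 16.2 CPM in HOMO1 to HOMO4. All HOMO libraries lay above all WT libraries, and HOMO1 and HOMO2 again stood above HOMO3 and HOMO4. The means were 2.64 ± 1.17 CPM in WT and 24.7 ± 10.6 CPM in HOMO (mean ± SD, n = 4 each), and the gene was upregulated, with a log2 fold change of 3.21 (SE 0.46, edgeR adjusted p = 0.00538). The call was kept in 8 of 8 fits that each left out 1 library (edgeR adjusted p 0.00453 to 0.0232). With close pairs summed the log2 fold change was 3.31, with an unadjusted p of 0.00145 and an edgeR adjusted p of 0.201. It shares 79 exon bases (1.54% of its exon bases) with an overlapping transcript on the same strand.

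*Col11a2* (fibrillar, chromosome 17 from 34039437 to 34066685, plus strand) codes for the alpha 2 chain of type 11 collagen, a minor component inside fibrils that helps to set their width. It was measured at 1.74, 1.88, 3.49 and 8.58 CPM in WT1 to WT4 and 15.9, 18.6, 15.1 and 11.7 CPM in HOMO1 to HOMO4. No WT library reached a HOMO library, and WT4 was the closest. The means were 3.93 ± 3.20 CPM in WT and 15.3 ± 2.87 CPM in HOMO (mean ± SD, n = 4 each), and the gene was upregulated, with a log2 fold change of 1.96 (SE 0.51, edgeR adjusted p = 0.0384). This call was the least stable of the 4: it was made in 1 of 8 fits that each left out 1 library (edgeR adjusted p 0.00505 to 0.111), namely without WT4, where the log2 fold change was 2.69. With close pairs summed it was 1.75 (unadjusted p 0.0371, edgeR adjusted p 0.379). Its partner *Col11a1* was not called, at 39.2, 31.6, 72.8 and 19.2 CPM in WT1 to WT4 and 12.0 to 29.9 CPM in HOMO, and its log2 fold change was -1.02 (SE 0.45, edgeR adjusted p = 0.154). Both genes also belong to cartilage, and of its 4 markers *Acan*, *Matn1* and *Comp* had mean levels of at most 0.303 CPM in either genotype, while *Sox9* was measured at 22.8, 20.4, 3.72 and 2.01 CPM in WT1 to WT4 and at 6.79 ± 2.42 CPM in HOMO (mean ± SD, n = 4) and was not called.

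*Col18a1* (basement membrane, chromosome 10 from 77052178 to 77166548, minus strand) codes for a heparan sulfate proteoglycan core with an interrupted helix, from whose end endostatin, an inhibitor of vessel growth, is released. Its levels were 46.5, 48.8, 91.0 and 85.8 CPM in WT1 to WT4 and 21.0, 20.7, 25.0 and 24.1 CPM in HOMO1 to HOMO4. Every HOMO library lay below every WT library, and WT3 and WT4 were above WT1 and WT2. The means were 68.0 ± 23.6 CPM in WT and 22.7 ± 2.14 CPM in HOMO (mean ± SD, n = 4 each), and the gene was downregulated, with a log2 fold change of -1.58 (SE 0.25, edgeR adjusted p = 0.00769). It was called in 8 of 8 fits that each left out 1 library (edgeR adjusted p 0.00825 to 0.0347). Without WT3 and WT4, which keeps only the close pair WT1 and WT2 as WT, the log2 fold change was -1.07 (edgeR adjusted p = 0.00152). With close pairs summed it was -1.71 (unadjusted p 0.00268, edgeR adjusted p 0.235). A count per gene joins the products of the separate starts of *Col18a1*.

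Sequence before the starts of the 4 called genes is shown since they are the members that passed the test. RefSeq starts (GRCm38.p6) were matched for 35 of the 44 members, and the 250 bases before each start were searched on both strands for the CCAAT box (CCAAT), the GC box (GGGCGG), the TATA box (TATAAA) and the Smad element (CAGAC), none of which contains another. Capitals mark the matches, in either orientation, and bases run 5′ to 3′ towards the gene. *Col18a1* has 2 starts.
*Col27a1*, chr4:63215162-63215411, plus strand: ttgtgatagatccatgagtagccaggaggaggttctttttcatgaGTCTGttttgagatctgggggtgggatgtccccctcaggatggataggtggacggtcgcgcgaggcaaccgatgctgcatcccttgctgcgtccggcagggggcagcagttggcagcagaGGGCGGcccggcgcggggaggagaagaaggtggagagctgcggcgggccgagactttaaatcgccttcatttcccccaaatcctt
*Col20a1*, chr2:180986285-180986534, plus strand: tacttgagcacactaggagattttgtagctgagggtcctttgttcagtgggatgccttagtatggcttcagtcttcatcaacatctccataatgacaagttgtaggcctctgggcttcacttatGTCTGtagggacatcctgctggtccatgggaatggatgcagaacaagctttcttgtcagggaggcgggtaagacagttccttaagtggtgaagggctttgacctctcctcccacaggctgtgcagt
*Col11a2*, chr17:34038888-34039137, plus strand: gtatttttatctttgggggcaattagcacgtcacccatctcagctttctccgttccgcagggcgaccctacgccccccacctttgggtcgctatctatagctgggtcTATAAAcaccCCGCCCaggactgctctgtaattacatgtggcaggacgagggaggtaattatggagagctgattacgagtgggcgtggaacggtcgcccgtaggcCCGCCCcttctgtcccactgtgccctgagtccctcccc
*Col18a1*, chr10:77113706-77113955, minus strand: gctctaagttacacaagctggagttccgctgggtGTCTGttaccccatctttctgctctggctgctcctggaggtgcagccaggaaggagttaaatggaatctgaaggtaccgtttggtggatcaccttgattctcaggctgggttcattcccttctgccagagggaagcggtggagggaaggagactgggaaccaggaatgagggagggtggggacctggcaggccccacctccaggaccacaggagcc
*Col18a1*, chr10:77166531-77166780, minus strand: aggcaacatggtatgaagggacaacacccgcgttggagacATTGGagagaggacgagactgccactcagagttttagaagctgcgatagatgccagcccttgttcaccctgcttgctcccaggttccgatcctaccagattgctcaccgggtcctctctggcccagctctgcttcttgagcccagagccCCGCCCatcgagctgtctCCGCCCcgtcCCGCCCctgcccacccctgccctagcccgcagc
*Col27a1* had 1 GC box and 1 Smad element, *Col20a1* 1 Smad element, and *Col11a2* 2 GC boxes and 1 TATA box. The start of *Col18a1* at the lower coordinate had 1 Smad element, and the other start had 1 CCAAT box and 3 GC boxes. Of all 32851 mouse promoters of this length, 33.8% held a CCAAT box, 32.7% a GC box, 12.4% a TATA box and 42.2% a Smad element. Of the 35 members, 13, 21, 5 and 17 did at any of their starts. The shares are per promoter and the member counts per gene, over 38 starts in all, so the units differ. No motif was shared by all 3 upregulated genes. A match of letters is a description of the sequence and says nothing of binding.

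**Figure D3:**
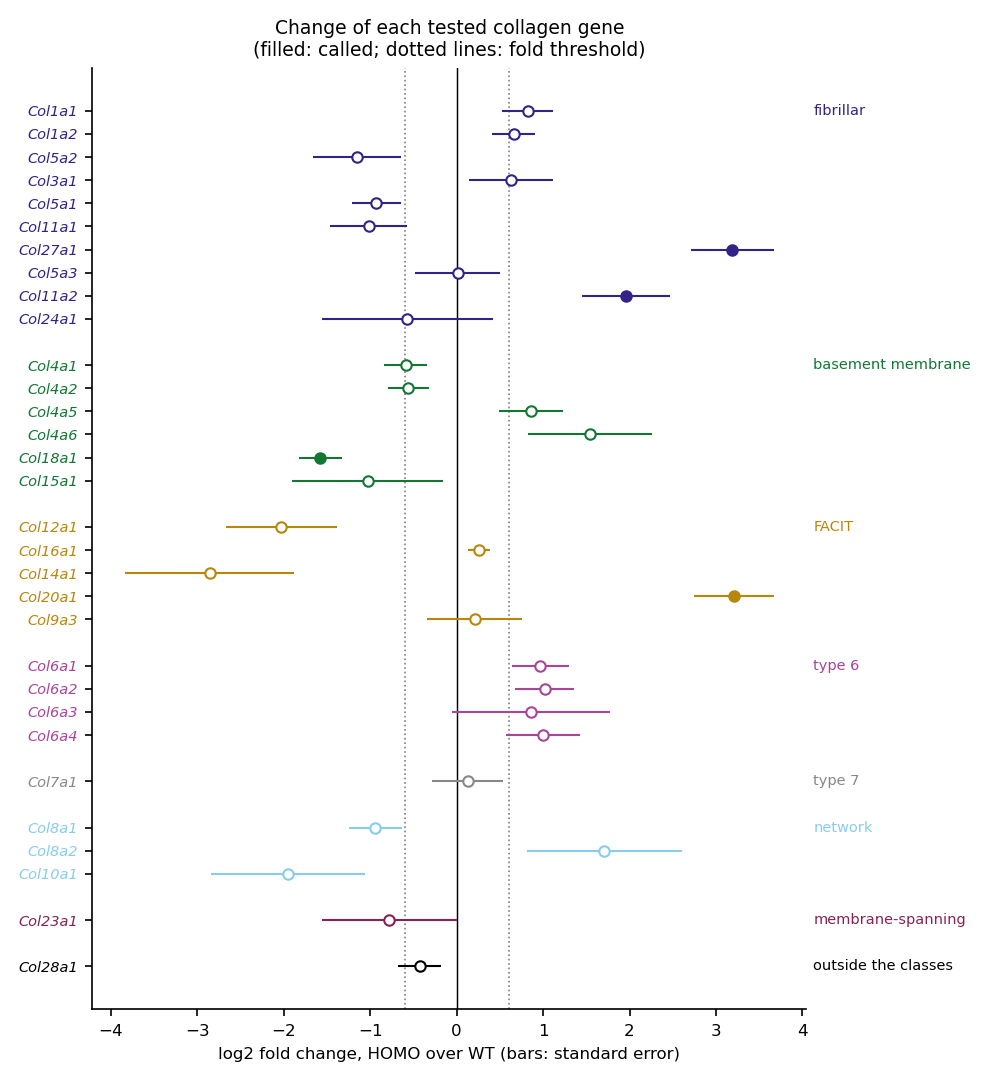
Log2 fold change of HOMO over WT for the 31 tested members, by class, with the standard error as bars. Filled points were called and dotted lines mark the fold threshold of 0.6. *Col27a1*, *Col20a1* and *Col11a2* lie at 1.96 to 3.21 and *Col18a1* at -1.58, and within the fibrillar, basement membrane, FACIT and network classes points lie on both sides of 0, while all 4 tested type 6 genes lie at 0.86 to 1.02. Among these 4, *Col6a4* passed the filter through HOMO.

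Fibrillar genes took most of the collagen RNA. All members together held 1.97 ± 0.385% in WT and 2.49 ± 0.656% in HOMO of the counts (mean ± SD, n = 4 each), of which the fibrillar genes held 1.37 ± 0.418% in WT and 1.92 ± 0.622% in HOMO. By library, the fibrillar share was 1.14, 1.14, 2.0 and 1.22% in WT1 to WT4 and 1.40, 1.35, 2.45 and 2.45% in HOMO1 to HOMO4. The range of WT overlapped that of HOMO, with WT3 above HOMO1 and HOMO2. Of 11 fibrillar genes, 10 were tested, 2 were called higher (background 5.94%) and 0 lower (background 6.18%). The median log2 fold change of the 10 was 0.32, from -1.15 to 3.19. The called members were not the abundant ones: *Col27a1* and *Col11a2* ranked 20 and 23 of 44 by level per transcript length.

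*Col1a1* and *Col1a2* code for the chains of type 1 collagen, the main fibril collagen of lung scars, and were the most abundant members per length. *Col1a1* (chromosome 11 from 94936224 to 94953042, plus strand) reached 828 ± 90.4 CPM per kb in WT and 1459.9 ± 559 CPM per kb in HOMO, and its levels were 4839, 4761, 5657 and 4385 CPM in WT1 to WT4 and 5845, 5736, 11699 and 11350.2 CPM in HOMO1 to HOMO4. HOMO1 and HOMO2 lay just above the highest WT library, while HOMO3 and HOMO4 lay far above them. *Col1a2* was measured at 3278, 3554, 5325 and 4394 CPM in WT1 to WT4 and 5481, 5152, 7726 and 7814 CPM in HOMO1 to HOMO4, and HOMO2 lay below WT3. Neither was called by edgeR, with *Col1a1* at 0.82 (SE 0.30, edgeR adjusted p = 0.0985) and *Col1a2* at 0.66 (SE 0.25, edgeR adjusted p = 0.105), and DESeq2 called both (DESeq2 adjusted p = 0.0373 and 0.0423). Type 1 collagen is mostly a trimer of alpha 1 and alpha 2 chains, and the ratio of *Col1a1* to *Col1a2* per length was 1.33, 1.21, 0.958 and 0.900 in WT1 to WT4 and 0.962, 1.00, 1.37 and 1.31 in HOMO1 to HOMO4. The ratio was above 1.2 in WT1, WT2, HOMO3 and HOMO4, and close to or below 1 in the other libraries, in both genotypes.

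*Col3a1*, whose homotrimer is laid down with type 1 in distensible tissues, was measured at 421, 475, 1243 and 788 CPM in WT1 to WT4 and 617, 539, 1589.8 and 1788 CPM in HOMO1 to HOMO4 and had a log2 fold change of 0.63 (SE 0.49, edgeR adjusted p = 0.407). WT3 and WT4 overlapped HOMO, where HOMO3 and HOMO4 again were the highest. Type 5 collagen starts fibrils and limits their width, and edgeR called none of its 3 chains. *Col5a1* was measured at 602, 553, 891 and 839 CPM in WT1 to WT4 and 267, 259.7, 485 and 499.8 CPM in HOMO1 to HOMO4, with no overlap, and had -0.93 (SE 0.28, edgeR adjusted p = 0.0611) on the log2 scale, just outside the threshold, and DESeq2 called it lower (DESeq2 adjusted p = 0.0187). *Col5a2*, the neighbour of *Col3a1* on chromosome 1, was measured at 1835, 1719.7, 8355 and 3204 CPM in WT1 to WT4 and 1357, 1300.3, 2031 and 2113 CPM in HOMO1 to HOMO4. The level in WT3 exceeded that of every other library, and the log2 fold change was -1.15 (SE 0.51, edgeR adjusted p = 0.157). Without WT3 and WT4 it was -0.06 (edgeR adjusted p = 0.852), and it was 0.01 with sample weights, so the difference of the means rested on those libraries. *Col5a3*, the remaining chain, had 5.57 to 20.7 CPM over all libraries and a log2 fold change of 0.01 (SE 0.49, edgeR adjusted p = 0.987). *Col24a1*, at 0.178 to 3.60 CPM, varied 15.7-fold within WT and 16.6-fold within HOMO.

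**Figure D4:**
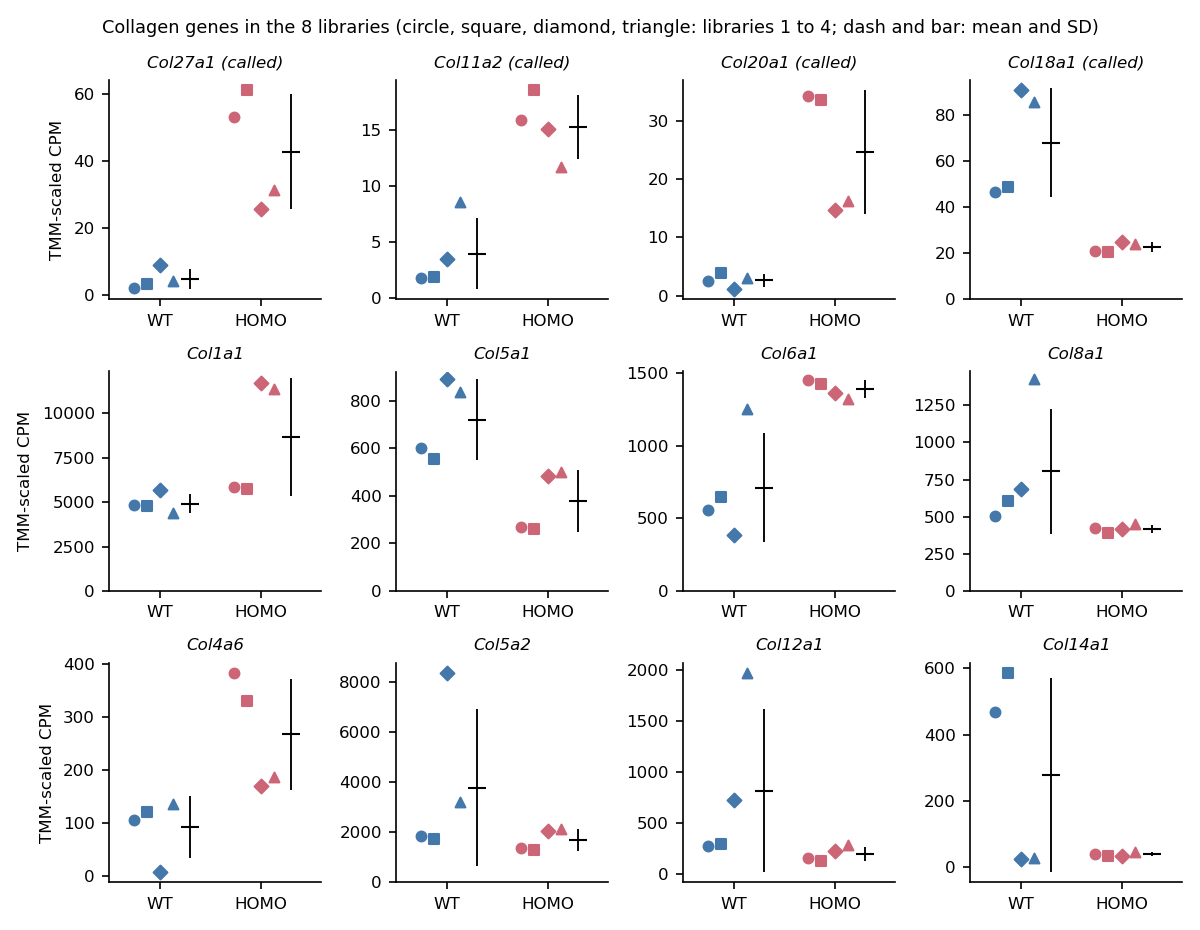
TMM-scaled CPM of 12 members in each library, WT in blue and HOMO in red, with the mean and SD of each genotype as dash and bar. The vertical axes are linear and differ between panels. The upper row shows the 4 called genes, whose genotypes do not overlap. In the lower row a single WT library or pair stands apart: WT3 low for *Col4a6* and high for *Col5a2*, WT4 high for *Col12a1*, and WT1 and WT2 high for *Col14a1*.

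Basement membrane chains differed in direction within the class. Of 8 genes, 6 were tested, 0 were called higher (background 5.94%) and 1, *Col18a1*, was called lower (background 6.18%). The median log2 fold change of the 6 was -0.58, from -1.58 to 1.54. *Col4a1* and *Col4a2*, the chains of the type 4 trimer found in every basement membrane, start 21 bases apart on opposite strands of chromosome 8. *Col4a1* was measured at 1288, 1277, 1261 and 2088 CPM in WT1 to WT4 and 826, 745, 1164 and 1203 CPM in HOMO1 to HOMO4, with no overlap between genotypes. *Col4a2* was measured at 847, 834, 1132 and 1594 CPM in WT1 to WT4 and 689.8, 623, 818 and 849.8 CPM in HOMO1 to HOMO4, and HOMO4 lay just above WT1 and WT2. Neither was called, with -0.59 (SE 0.25, edgeR adjusted p = 0.139) and -0.56 (SE 0.24, edgeR adjusted p = 0.143) on the log2 scale, while the median of the 791 tested genes of chromosome 8 was 0.38. Without WT4 the values were -0.37 for *Col4a1* and -0.33 for *Col4a2*, and without WT3 and WT4 they were -0.38 and -0.18. The ratio of *Col4a1* to *Col4a2* per length lay between 1.09 and 1.49 in all 8 libraries.

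*Col4a5* and *Col4a6* form another type 4 network, known from smooth muscle and some epithelial basement membranes, and start 1309 bases apart on opposite strands of the X chromosome. *Col4a6* was measured at 106, 121, 6.59 and 135 CPM in WT1 to WT4 and 383, 330, 169 and 187 CPM in HOMO1 to HOMO4, and WT3 stood far below all other libraries. The genotypes did not overlap, and the log2 fold change was 1.54 (SE 0.72, edgeR adjusted p = 0.178). Without WT3 it was 1.14, the lowest value among the fits that left out 1 library, with an edgeR adjusted p of 0.0404, and across those fits the adjusted p ran from 0.0404 to 0.350. *Col4a5* was measured at 228, 236, 93.3 and 336 CPM in WT1 to WT4 and 522, 480.1, 293 and 320.3 CPM in HOMO1 to HOMO4, with an overlap of WT4, HOMO3 and HOMO4 and a log2 fold change of 0.86 (SE 0.37, edgeR adjusted p = 0.147). The ratio of *Col4a5* to *Col4a6* per length was 2.19, 1.98, 14.4 and 2.52 in WT1 to WT4 and 1.39, 1.48, 1.76 and 1.74 in HOMO1 to HOMO4. It was lower in each HOMO library than in each WT library, and WT3 was far from the other WT libraries. *Col15a1*, a proteoglycan relative of *Col18a1*, had at most 1.80 CPM and was not called (log2 fold change -1.03 (SE 0.87, edgeR adjusted p = 0.444)). *Col4a3* and *Col4a4*, the chains of the mature alveolar and glomerular network, did not pass the filter.

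All 4 tested type 6 genes had a positive log2 fold change. Type 6 filaments are built from an alpha 1, an alpha 2 and a longer chain and link cells to the surrounding matrix. Of 6 genes, 4 were tested and 0 were called by edgeR in either direction, while 3 had an unadjusted p under 0.05 (background 32.3%) and DESeq2 called 2 (background 16.5%). The median log2 fold change was 0.98. *Col6a4*, 1 of the 4 and 1 of the 3, had 10 counts in 2 WT libraries and in 4 HOMO libraries. It passed the filter through HOMO, so its direction adds little to that of the class. *Col6a1* (chromosome 10 from 76708792 to 76726168, minus strand) was measured at 556, 649, 388 and 1252 CPM in WT1 to WT4 and 1457, 1428, 1363 and 1322 CPM in HOMO1 to HOMO4. *Col6a2* (chromosome 10 from 76595762 to 76623630, minus strand), its neighbour, was measured at 290, 318, 173 and 607 CPM in WT1 to WT4 and 654, 643, 794 and 732 CPM in HOMO1 to HOMO4. For both genes the genotypes did not overlap, WT4 was the highest WT library and close to HOMO, and the HOMO libraries lay within 1.10-fold and 1.24-fold of each other. The log2 fold changes were 0.97 (SE 0.33, edgeR adjusted p = 0.0832) for *Col6a1* and 1.02 (SE 0.34, edgeR adjusted p = 0.0780) for *Col6a2*. DESeq2 called both (DESeq2 adjusted p = 0.0382 and 0.0333), and edgeR called both without WT4 (edgeR adjusted p 0.00844 and 0.0114), in a range over the 8 such fits that reached 0.184 and 0.156. Their ratio per length was 1.85, 1.96, 2.16 and 1.99 in WT1 to WT4 and 2.15, 2.14, 1.65 and 1.74 in HOMO1 to HOMO4.

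*Col6a3*, the long chain needed for the common trimer, did not follow its partners. It was measured at 17.2, 14.6, 145 and 25.0 CPM in WT1 to WT4 and 26.9, 25.8, 157 and 157 CPM in HOMO1 to HOMO4, high in WT3, HOMO3 and HOMO4 and low in the other 5 libraries, with a log2 fold change of 0.86 (SE 0.91, edgeR adjusted p = 0.550). The ratio of *Col6a1* to *Col6a3* per length was 79.7, 109.8, 6.58 and 123 in WT1 to WT4 and 133, 136, 21.4 and 20.8 in HOMO1 to HOMO4. *Col6a4*, a chain that can take the place of *Col6a3*, had 0.271 to 1.56 CPM and a log2 fold change of 1.00 (SE 0.43, edgeR adjusted p = 0.148). Taken over the class, type 6 genes held 0.0893, 0.101, 0.0654 and 0.168% in WT1 to WT4 and 0.219, 0.217, 0.241 and 0.229% in HOMO1 to HOMO4 of the counts, without overlap, a share set by *Col6a1* and *Col6a2* and given here with no test.

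FACIT genes held 0.121 ± 0.0504% in WT and 0.0498 ± 0.00950% in HOMO of the counts, and their members differed the most from each other. Of 9 genes, 5 were tested, 1, *Col20a1*, was called higher (background 5.94%) and 0 lower (background 6.18%). The log2 fold changes ran from -2.86 to 3.21. *Col12a1*, a chain of fibril surfaces in tissue under tension, was measured at 273, 291, 723 and 1969.5 CPM in WT1 to WT4 and 159, 131, 228 and 279.9 CPM in HOMO1 to HOMO4. WT4 stood above WT3 and both stood above WT1 and WT2, and HOMO4 overlapped WT1. Its log2 fold change was -2.03 (SE 0.64, edgeR adjusted p = 0.0677), DESeq2 called it lower (DESeq2 adjusted p = 0.00598), and edgeR called it without WT1, at -2.32 (edgeR adjusted p = 0.0474). Without WT4 it was -1.10 (edgeR adjusted p = 0.110), and without WT3 and WT4 it was -0.50 (edgeR adjusted p = 0.224). *Col14a1*, which binds decorin on fibrils and is a marker of one lung fibroblast population, was measured at 469, 586, 24.5 and 28.8 CPM in WT1 to WT4 and 38.8, 32.5, 35.1 and 46.5 CPM in HOMO1 to HOMO4. WT1 and WT2 stood apart from all other libraries, and WT3 and WT4 lay below the lowest HOMO library. The log2 fold change was -2.86 (SE 0.98, edgeR adjusted p = 0.0849), DESeq2 called it lower (DESeq2 adjusted p = 0.0282), and without WT1 and without WT2 the edgeR value was -2.48 and -2.19.

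*Col16a1*, found in fibrillin microfibrils and in collagen fibrils, was the steadiest FACIT member, at 174, 178, 178 and 193 CPM in WT1 to WT4 and 204, 181, 245 and 238 CPM in HOMO1 to HOMO4, with a log2 fold change of 0.26 (SE 0.13, edgeR adjusted p = 0.212). *Col9a3*, a cartilage chain, had 0.229 to 1.85 CPM and a log2 fold change of 0.21 (SE 0.55) and was not called. *Col19a1*, found near basement membrane zones and in muscle, did not pass the filter. Its levels were 1.07, 1.84, 0.286 and 1.24 CPM in WT1 to WT4 and 0.134, 0.212, 0.354 and 0.400 CPM in HOMO1 to HOMO4, low in WT3 as in HOMO, and the exact permutation test of the means gave a two-sided p of 0.0857. DESeq2, which tests genes with fewer counts, called it lower (log2 fold change -2.05, DESeq2 adjusted p = 0.0167).

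Network collagens form hexagonal lattices, known from vessel walls and the cornea for type 8 and from hypertrophic cartilage for type 10. All 3 genes were tested and 0 were called by edgeR in either direction (background 12.1%). Of them 1, *Col8a1*, had an unadjusted edgeR p under 0.05 (background 32.3%) and was called by DESeq2 (background 16.5%). *Col8a1* was measured at 505, 607, 684 and 1426 CPM in WT1 to WT4 and 426, 387, 415 and 449 CPM in HOMO1 to HOMO4, with no overlap and WT4 far above the rest, and had a log2 fold change of -0.94 (SE 0.31, edgeR adjusted p = 0.0788). The DESeq2 adjusted p was 0.0344. Without WT4 the edgeR log2 fold change was -0.51 (edgeR adjusted p = 0.0525). Without WT3 and WT4, with only the close pair WT1 and WT2 as WT, it was -0.41 (edgeR adjusted p = 0.0302). *Col8a2*, its partner chain, was measured at 0.0562, 0.171, 0.229 and 1.89 CPM in WT1 to WT4 and 2.94, 2.51, 0.962 and 1.55 CPM in HOMO1 to HOMO4, with a log2 fold change of 1.71 (SE 0.90, edgeR adjusted p = 0.223). The levels of *Col8a2* in WT1, WT2 and WT3 rest on 1, 4 and 4 counts. *Col10a1* had 0.745 to 1.93 CPM in WT and 0.0302 to 0.951 CPM in HOMO, and its log2 fold change was -1.95 (SE 0.89, edgeR adjusted p = 0.166).

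*Col7a1*, the anchoring fibril chain of the skin, was tested, overlapped between genotypes and had a log2 fold change of 0.13 (SE 0.41, edgeR adjusted p = 0.866), at 2.92 to 8.82 CPM. In the membrane-spanning class *Col23a1* was the 1 tested gene of 4, with 0.281 to 4.58 CPM in WT and 0.755 to 1.05 CPM in HOMO and -0.78 (SE 0.78, edgeR adjusted p = 0.525) on the log2 scale. *Col28a1*, outside the classes, was measured at 50.8, 75.0, 69.8 and 108 CPM in WT1 to WT4 and 68.7, 63.9, 40.1 and 53.0 CPM in HOMO1 to HOMO4, with a log2 fold change of -0.43 (SE 0.25, edgeR adjusted p = 0.274).

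The other 13 members did not pass the filter. For 10 of them, with more than 3 counts in at least 1 library, the means were compared by an exact two-sided permutation test over the 70 assignments of libraries to genotypes, whose smallest possible p is 0.0286. The p-values ran from 0.0571 for *Col9a2* to 0.657 for *Col6a6*, and none was under 0.05. *Col4a4* reached 1.74 CPM in WT4 and *Col13a1* 1.15 CPM in WT3, and the highest level of the other 7 besides *Col19a1* was 1.10 CPM (*Col22a1* in HOMO4). *Col2a1*, the main fibril collagen of cartilage, had at most 0.271 CPM. *Col9a1* and *Col25a1* had at most 3 counts in every library. *Col26a1* had 0 counts in all 8 libraries, which allows a level of up to 0.0907 to 0.172 CPM depending on the library (3 counts, counting error only).

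**Figure D5:**
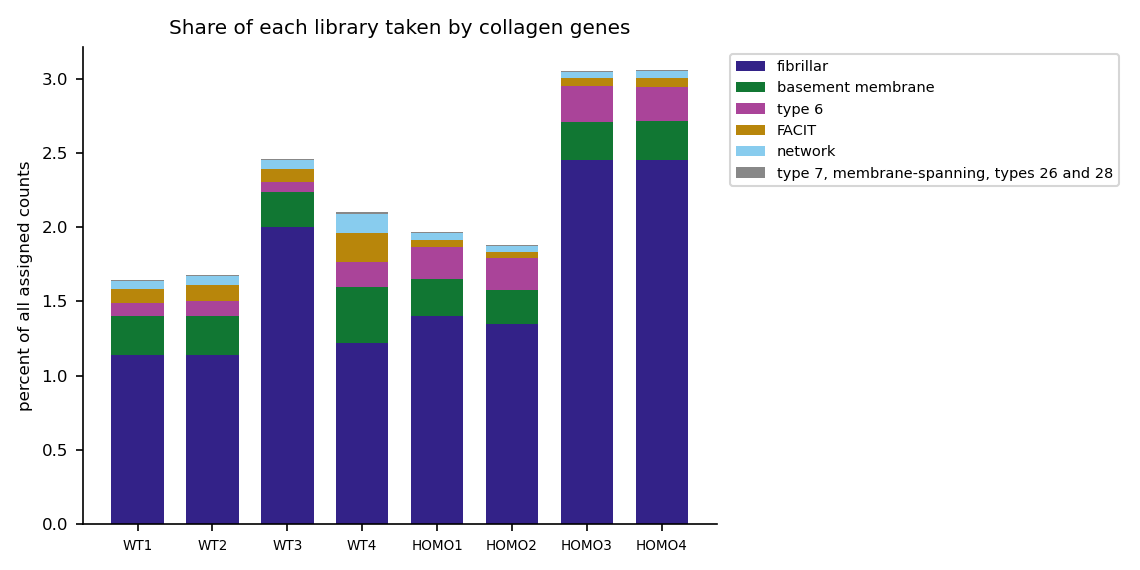
Stacked bars of the percent of all assigned counts taken by collagen genes in each library, by class. The total runs from 1.64% in WT1 to 3.07% in HOMO4, and fibrillar genes take 58.0% (WT4) to 81.2% (WT3) of it.

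Collagen genes varied widely within a genotype. In HOMO, 17 of the 31 tested members (54.8%) differed over 1.5-fold between the mean of HOMO1 and HOMO2 and the mean of HOMO3 and HOMO4 (0.5 CPM added to each), 12 of them higher in HOMO3 and HOMO4, beside 19.7% of all tested genes. In WT, 22 members (71.0%) differed as much between WT3 and the mean of WT1 and WT2, beside 49.7% of all tested genes, and 19 (61.3%) between WT4 and that mean, beside 37.1%. Between the libraries of a close pair it was 1 member (3.23%) in each of the 3 pairs. The total collagen share followed the same lines, at 1.64, 1.68, 2.46 and 2.10% in WT1 to WT4 and 1.97, 1.88, 3.05 and 3.07% in HOMO1 to HOMO4.

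DESeq2, the tool of the study, gave an adjusted p for 40 members and called 13 of them (32.5%, background 16.5%), 7 higher and 6 lower in HOMO. These were the 4 genes that edgeR called, *Col1a1*, *Col1a2*, *Col6a1* and *Col6a2* higher, and *Col5a1*, *Col8a1*, *Col12a1*, *Col14a1* and *Col19a1* lower. The fold changes of both tools for the 8 of these 9 genes that edgeR tested differed by at most 0.01 on the log2 scale.

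Genes that make, trim, cross-link, bind or degrade collagen were taken as 5 lists of 47 genes, 44 of them tested, of which 1 was called higher (2.27%, background 5.94%) and 7 lower (15.9%, background 6.18%) in HOMO. The median log2 fold change over the 44 was -0.43. The same background shares apply to each of the 5 lists. For an unadjusted edgeR p under 0.05 the background was 32.3%, and for DESeq2 calls it was 16.5%. Of the folding and modification enzymes (17 tested), 4 were downregulated, with log2 fold changes for *Plod2*, the telopeptide lysyl hydroxylase, of -1.73 (SE 0.28, edgeR adjusted p = 0.0081), *Plod1*, the helix lysyl hydroxylase, of -1.25 (SE 0.35, 0.0466), *P3h3*, a prolyl 3-hydroxylase family member, of -1.22 (SE 0.25, 0.0193), and *P4ha2*, a prolyl 4-hydroxylase subunit, of -1.14 (SE 0.25, 0.0242). *Plod2* was measured at 373, 401, 227 and 605 CPM in WT1 to WT4 and at 107 to 141 CPM in HOMO. Of the cross-linking oxidases (5 tested), *Loxl3* and *Loxl4* were downregulated, with log2 fold changes of -1.24 (SE 0.24, edgeR adjusted p = 0.0146) and -1.31 (SE 0.26, 0.0165), and *Lox* was not called, at 1594, 1680.3, 1290.1 and 6648 CPM in WT1 to WT4, with WT4 far above the rest, and 3199 to 4071 CPM in HOMO. Of the propeptide proteases and their enhancers (7 tested), *Adamts3*, a procollagen N-proteinase, was upregulated, with a log2 fold change of 2.80 (SE 0.67, edgeR adjusted p = 0.0310), from 1.63 to 11.3 CPM. In this list 5 genes had an unadjusted edgeR p under 0.05 and DESeq2 called 4. *Pcolce2* had a log2 fold change of 3.13 (SE 0.91, edgeR adjusted p = 0.0543), from 2.13 to 18.7 CPM, and was not called by edgeR. Of the receptors (9 tested), *Itga2*, the alpha 2 chain of a collagen integrin, was downregulated, with a log2 fold change of -3.89 (SE 0.91, edgeR adjusted p = 0.0290), from 4.76 to 0.329 CPM, with WT3 at 0.687 CPM. Of the 6 collagen-degrading proteases edgeR called 0, while 1, *Mmp2*, had an unadjusted p under 0.05 and DESeq2 called 1.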

How the data were processed

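RNA of WT and HOMO pFBs was sequenced as 4 poly(A)-selected, paired-end libraries per genotype. The deposited values are raw read counts per gene symbol, which the authors made by trimming with fastp, aligning with STAR to mm10 and counting with featureCounts; versions, annotation and the strand setting are not given in the sources used here, so reads of overlapping genes cannot be separated by strand (at most 6.07% of a member's exon bases are shared). The label of the counts says that an outlier is out, and what was removed is not given. All 8 columns were used, and 0 were set aside.

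The tests were run in R 4.3.3 with edgeR 4.0.16 (TMM, filterByExpr, quasi-likelihood F test, HOMO against WT, no covariates), DESeq2 1.42.0 and limma 3.58.1, and with Python 3.11.15 and scipy 1.17.1. SE is the absolute log2 fold change over the square root of F. Log2 CPM has a prior count of 2. Levels per kb divide CPM by the length of the longest coding transcript. Genes under the filter with more than 3 counts in a library were compared by exact permutation. Scripts were tested on simulated data. The members, gene lists and named genes (members called by edgeR or DESeq2, members without overlap, the 8 highest per length) were chosen with earlier results of these data known. Protein sequences were not used here. Floors cover counting error only. Alternatives were other tools, scalings and filters, no fold threshold, a replicate block, each library left out, and close pairs summed; leaving out WT3 and WT4 was added after seeing the data. Gene positions are from GENCODE M21.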

Additional observations from a re-analysis of the deposited data

Results flagged for a closer look

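Among 62 sets of 4 libraries (31 tested members in each genotype), 4 had a library farther from the others than Dixon's 95% limit, and chance gives about 1 in 20. *Col4a1* was high in WT4, at a log2 CPM of 11.03 against 10.30 to 10.33 in the other WT libraries. *Col4a6* was low in WT3, at 2.74 against 6.72 to 7.08. *Col5a3* was high in WT3, at 4.38 against 3.13 to 3.25. *Col23a1* was low in HOMO2, at -0.24 against 0.14 to 0.19 in the other HOMO libraries.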

How the results depend on the processing

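The same 4 collagen genes were called under RLE and upper-quartile scaling, without the filter and with CPM above 1 in 4 libraries, and no fold threshold left 3 higher and 1 lower. DESeq2 called 7 higher and 6 lower (2913 of all genes), and limma-voom with sample weights 13 and 3 (3573), where *Col5a2* reversed to 0.01. Leaving out WT3 and WT4 gave 9 and 3 (3117), with the close pair WT1 and WT2 as the only WT libraries. With close pairs summed edgeR called 0 higher, 0 lower and 0 of all genes, with 6 members and 2057 genes at an unadjusted p under 0.05; that fit has 5 units. Leaving out 1 library gave 2 to 6 members higher, 1 to 3 lower and 507 to 2192 genes in all, the lowest without HOMO1 and the highest without WT3. The count of members was 7 without WT3 and 8 without WT4, against 3 or 4 without each other library. The median log2 fold change of members ran from -0.08 (without WT4) to 0.34. Causes were not tested where the number of samples did not change.

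With the replicate number as a block (replicate block), 2 members were called higher and 2 lower (947 of all genes), with *Col5a1* in and *Col11a2* out. Same-numbered libraries did not deviate together (r = -0.09, -0.04, 0.01 and -0.12 for numbers 1 to 4), and no sample correlated best with its own number. Libraries of a close pair deviate alike, so these values cannot tell whether same-numbered samples share more than a number.

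Levels far below 1 CPM rest on few counts.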

Other observations

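Chromosome-wide shifts lie beside some members. The 683 tested genes of chromosome 3, which carries *Col11a1*, *Col24a1* and *Col25a1*, had a median log2 level 0.37 higher in WT3 than in the other WT libraries. The 845 tested genes of chromosome 4, which carries *Col27a1*, *Col8a2*, *Col9a2*, *Col15a1* and *Col16a1*, were 0.36 higher in WT4 than in the other WT libraries by the same measure. *Col11a1* was highest in WT3, *Col24a1* was lowest there among WT, *Col8a2* was highest among WT in WT4, and *Col27a1* was not. *Col16a1* was highest among WT in WT4 too, and *Col15a1* was lowest there. In the HOMO libraries the shifts of chromosomes 3 and 4 were -0.03 to 0.04. For the other chromosomes that carry members, shifts in WT ran from -0.22 to 0.24. Chromosome 10 had 0.23 in WT4 and -0.13 in WT3, and *Col6a1* and *Col6a2*, which it carries, were highest among WT in WT4 and lowest in WT3. Chromosome 9 had 0.24 in WT3 and -0.18 in WT4. Of the members it carries, *Col5a3* was highest in WT3, while *Col12a1* was highest in WT4 and *Col7a1* was lowest among WT in WT3. The part of these shifts in the levels of members was not tested.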
